A study of Rattus norvegicus with 15 samples.

Results

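The baseline microRNA (miRNA) profile of uninjured rat sciatic nerve was described from 3 of the 15 arrays of a nerve injury series. The 3 arrays are those labelled as the starting point, before injury (0h, also called day 0), and the other groups of the series were not used. The animals were adult male rats, and the nerve of this group is described as normal. The labels also name its tissue as the injury site and as proximal stumps, and they give the injury of the series as a crush in one place and as a resection in another. Their strain is not given in the sources used here. RNA came from a mirVana isolation kit, and an input of 0.1 µg carried the dye cyanine 3 onto a 1-colour Agilent rat miRNA array. The labels number the arrays 1 to 3 without saying whether each holds nerve of a separate animal, so the spread between them may be technical, and the number of arrays limits the precision. All 3 were on 1 slide.

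Each array reads 350 rat miRNAs with 7000 spots, a median of 20 spots per miRNA, shared by 1 to 4 different probes. The value used is the total signal of a miRNA, a background-subtracted fluorescence intensity that the scanner software sums over the probes. It is given with a detection call by the same software. The total signal of all miRNAs was 220393, 229947 and 241173 on arrays 1, 2 and 3. The lowest signal that was called detected was 4.39, 5.64 and 4.55, and the brightest miRNA lay 3636, 3415 and 4431 times above it. No spot was saturated, and 3.11% to 4.17% of spots were set aside as outliers. A share of signal is the signal of a miRNA or group as a percentage of the array's total. It is not a share of molecules, because probes bind differently: the brightest and dimmest probe of the same miRNA differed by a median of 2.03-fold, 1.99-fold and 2.04-fold on the 3 arrays. Every mean below is over the 3 arrays with its SD (n = 3).

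A miRNA is a short RNA, cut from a hairpin precursor, that guides a silencing complex to messenger RNAs. Pairing rests mainly on the seed, bases 2 to 8 of the mature strand, so miRNAs with 1 seed form a family with overlapping targets. Many hairpins lie side by side in the genome and are made from 1 transcript, and those are called clusters. In a peripheral nerve trunk, Schwann cells lie along the axons, with fibroblasts, endothelium, resident immune cells and the perineurial sheath beside them. The axons come from cell bodies that lie elsewhere. Loss of the enzyme Dicer, which cuts the precursors, in Schwann cells is known to block myelination.

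The sequences behind the main results are shown here. They are the mature strands of the RefSeq annotation of assembly GRCr8, which matched 283 of the 350 array names, and these held 95.2% of the signal. The seed is in capitals, and each strand reads 5′ to 3′. The let-7 family is shown because it held the largest share of any family, and its members differ by few bases outside the seed:
let-7a: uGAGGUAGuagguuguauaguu
let-7f: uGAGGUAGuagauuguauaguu
let-7c: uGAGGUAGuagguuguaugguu
let-7b: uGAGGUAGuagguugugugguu
let-7i: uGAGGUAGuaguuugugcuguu
let-7d: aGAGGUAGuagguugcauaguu
let-7e: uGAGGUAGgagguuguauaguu
miR-98: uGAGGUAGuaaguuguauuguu

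The next sequences are those of the other leading families. The miR-125 family also has a member, miR-351, that was detected on no array:
miR-125b-5p: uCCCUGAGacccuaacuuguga
miR-125a-5p: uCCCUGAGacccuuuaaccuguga
miR-351: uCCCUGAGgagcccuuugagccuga
miR-23a: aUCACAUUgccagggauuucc
miR-23b: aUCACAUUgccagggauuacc
miR-338: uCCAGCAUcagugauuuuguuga
miR-26a: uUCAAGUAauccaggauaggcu
miR-26b: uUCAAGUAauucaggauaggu

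A last set holds the miRNAs that differed most between the 3 arrays, those of muscle and of red blood cells:
miR-1: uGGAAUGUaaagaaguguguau
miR-206: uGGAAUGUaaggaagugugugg
miR-133a: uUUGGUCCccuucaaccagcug
miR-133b: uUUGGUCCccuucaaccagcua
miR-451: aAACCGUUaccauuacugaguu
miR-144: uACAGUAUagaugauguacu

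The detection call was positive on all 3 arrays for 198 of the 350 miRNAs (56.6%), on 1 or 2 arrays for 29 (8.29%) and on no array for 123 (35.1%). Array 1 detected 215, array 2 detected 200 and array 3 detected 222. The 29 with a mixed call were nearly all absent from array 2, which detected 2 of them. Of these 29, 12 were called on arrays 1 and 3 together, 11 on array 3 alone and 4 on array 1 alone. Array 2 also had the highest limit, with its dimmest detected miRNA at 5.64 and an additive error of 5.51, against 4.39 and 4.29 for the additive error of arrays 1 and 3. Whether this limit sets the mixed calls was not tested. With array 2 left out, or with array 3 left out, 17 miRNAs had a mixed call.

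Most of the 29 were dim. Their highest signal had a median of 10.9, and 1 of them passed 50. That one was miR-206, a muscle miRNA, at 507 on array 1, not detected on array 2, and at 44.5 on array 3. The next were miR-378* at 46.6 on array 1 and 10.5 on array 3, and miR-483, from an intron of the growth factor gene Igf2, at 42.0 and 8.66 on the same arrays. Then came miR-188, at 36.0 on array 3 alone, and miR-455, at 18.1 on array 1 and 21.8 on array 3. miR-219-5p, best known from the differentiation of oligodendrocytes, the myelinating glia of the brain, was called on array 3 alone at 19.96.

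**Figure D1:**
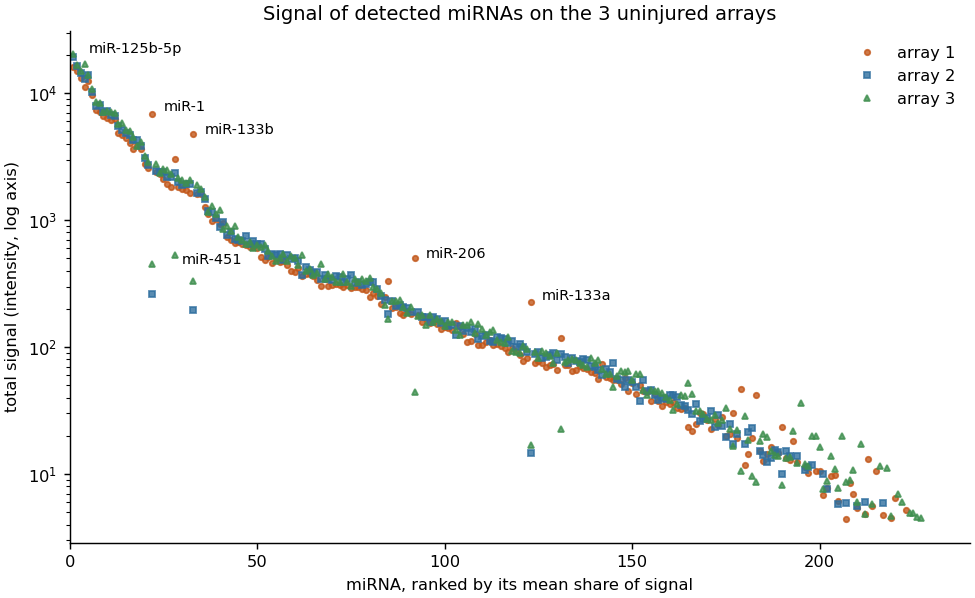
Total signal (intensity, log axis) of every miRNA detected on at least 1 of the 3 uninjured arrays, in the order of its mean share of signal, with 1 symbol per array. The symbols of most miRNAs lie close together, while miR-1, miR-133b, miR-133a and miR-206 are highest on array 1 and miR-451 is lowest on array 3.

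Signal was concentrated in few miRNAs. The brightest 10 held 50.1% ± 2.24 of it, with 47.5%, 51.0% and 51.7% on arrays 1, 2 and 3. The brightest 20 held 71.0% ± 2.89 and the brightest 50 held 90.4% ± 0.105. Those 10 brightest by mean share were also the 10 brightest on array 2 alone and on array 3 alone, and 9 of them were among the 10 brightest on array 1.

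miR-125b-5p, a vertebrate relative of worm lin-4 and the first of these, was at 15967, 19242 and 20141, which is 7.99% ± 0.644 of the signal. Array 1 was the lowest. Next came let-7a at 14852, 16323 and 16713 (6.92% ± 0.180) and let-7f at 13272, 14412 and 15035 (6.17% ± 0.133). miR-338, which is made from an intron of the kinase gene Aatk and is known from myelinating glia and neurons, followed at 11194, 12987 and 16848 (5.90% ± 0.979). Its SD was the largest of any of the brightest 20, and array 3 stood above the other arrays. The next was let-7c, at 12569, 13821 and 13960 (5.83% ± 0.159).

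The brightest 10 were completed by miR-23a (4.41% ± 0.0685), miR-23b (3.43% ± 0.0950), miR-26a (3.39% ± 0.158), let-7b (3.02% ± 0.0809) and miR-16 (3.01% ± 0.145). Between ranks 11 and 20 were miR-99a (2.88% ± 0.0922), let-7i (2.87% ± 0.0326), miR-24 (2.32% ± 0.105), miR-22 (2.25% ± 0.142) and let-7d (2.08% ± 0.0486). The last of them were miR-27a (1.98% ± 0.125), miR-27b (1.79% ± 0.131), miR-199a-3p (1.74% ± 0.147), miR-26b (1.68% ± 0.0222) and miR-21 (1.31% ± 0.0398). Many neighbours in this order overlapped in their shares between the arrays. miR-338 overlapped with let-7f and with let-7c, and miR-23b with miR-26a. Each pair of neighbours from let-7b to let-7i and from miR-24 to miR-26b overlapped too. let-7c was above miR-338 on arrays 1 and 2.

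By seed, the 283 miRNAs with a sequence formed 224 families, of which 34 had more than 1 member on the array. The let-7 family, which holds back growth and stem cell genes in differentiated tissue, led with 28.0% ± 0.598 of the signal, at 27.4%, 28.6% and 28.1% on the 3 arrays. All 8 of its members were detected on all 3 arrays. Its dimmest were let-7e at 1735, 1928 and 1973 (0.814% ± 0.0258) and miR-98 at 673, 696 and 737 (0.305% ± 0.00161). The arrays thus differed by little in the family and in each member.

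The miR-125 family held 8.21% ± 0.654, nearly all of it in miR-125b-5p, since miR-125a-5p was at 460, 540 and 522 and miR-351 was not detected. The miR-23 family, with miR-23a and miR-23b, held 7.84% ± 0.162, with miR-23a at 9581, 10129 and 10814 and miR-23b at 7329, 7934 and 8470. The seed of miR-338 had no other member and held 5.90% ± 0.979. The miR-26 family, 2 members that restrain cell cycle genes, held 5.06% ± 0.170. miR-26a was at 7063, 8036 and 8341 and miR-26b at 3660, 3830 and 4103, so array 1 was the lowest in both. These 5 families together held 55.0% ± 2.26 of the signal.

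Below them were the miR-15/16 family, 5 members that also restrain the cell cycle, with 4.79% ± 0.155, and the miR-27 family with 3.77% ± 0.254. In the miR-15/16 family, miR-195 was at 1594, 1664 and 1755, miR-497 at 1023, 1030 and 1112, and miR-15b at 950, 971 and 850. The miR-30 family had 2.09% ± 0.0847 in the 4 members with a sequence, and miR-30b-5p (0.496% ± 0.0431) and miR-30d (0.233% ± 0.00586) had no match and were left out of that sum. miR-99a (2.88%) had no match either and entered no family, so the ranks of the families hold only for the matched miRNAs. The miR-29 family, known for repressing collagen genes, held 1.88% ± 0.122, and miR-103 with miR-107 held 1.78% ± 0.109.

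**Figure D2:**
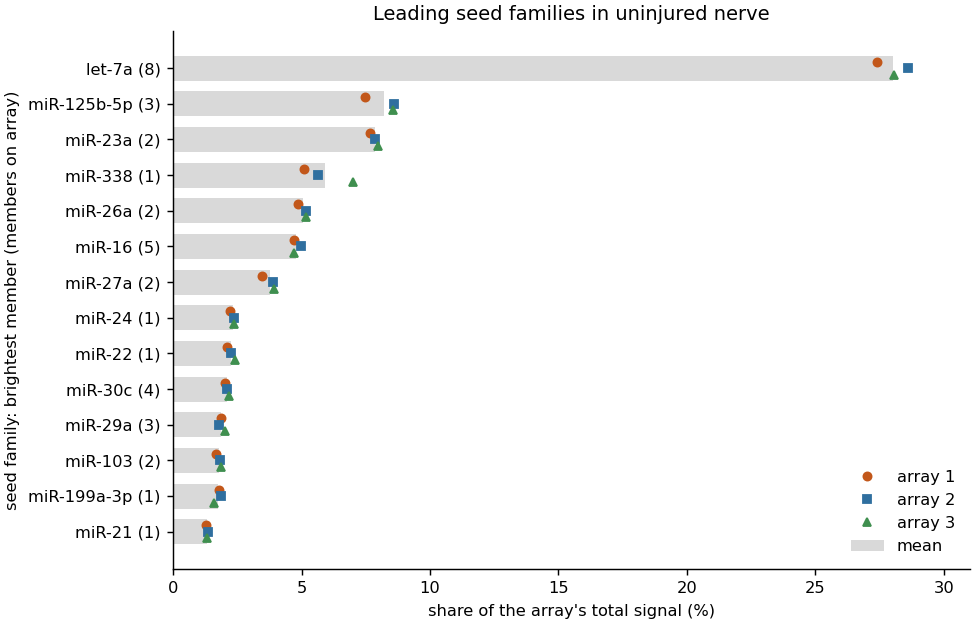
Share of each array's total signal (%) in the 14 leading seed families, with bars for the mean of the 3 uninjured arrays and 1 symbol per array. The family of let-7a is at 27.4% to 28.6%, and the widest gap between arrays among the other families shown is that of miR-338, at 5.08% to 6.99%. The miR-1 family, at rank 15 and not shown, has a wider gap, at 3.35%, 0.113% and 0.204% on arrays 1, 2 and 3.

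Of the 34 families with more than 1 member, 20 had every member detected on all 3 arrays, 3 had none on any, and 11 were mixed. In most of the mixed families a detected and an undetected miRNA share a seed. The exceptions were miR-1 with miR-206 and miR-24-2* with miR-24-1*, where the second was detected on 1 or 2 arrays. miR-130a was at 1919, 2201 and 2484, while miR-130b and miR-301b were not detected. miR-34a, a target of the tumour suppressor p53, was at 1620, 1631 and 1881, while miR-34c and miR-449a were not detected and miR-34b was called on arrays 1 and 3 only. miR-92a was at 360, 386 and 369 and miR-92b was not detected. miR-212 was at 49.96, 37.4 and 61.1, and miR-132, from the same cluster and known as a target of the transcription factor CREB, was not detected. The 3 families with no detected member were those of miR-135a and miR-135b, of miR-190 and miR-190b, and of miR-290 and miR-292-5p.

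Many of the bright miRNAs are genomic neighbours. Of the 350 names, 346 were matched to a hairpin gene of the annotation, and 180 of them lay in 42 clusters of hairpins no more than 10 kb apart on 1 strand. Those 180 of the 350 names held 58.0% ± 2.29 of the signal. The brightest miRNA, miR-125b-5p, lay in no such cluster, nor did miR-338 and miR-26a. The cluster of let-7a, let-7d and let-7f held 15.2% ± 0.355, with 14.8%, 15.5% and 15.3% on the 3 arrays. The cluster of miR-23a, miR-27a and miR-24 held 8.76% ± 0.293, and that of let-7c and miR-99a held 8.73% ± 0.231. These 3 clusters summed to 32.7% ± 0.846. let-7a, let-7f, let-7c and miR-24 are each made at more than 1 locus and were counted once, with 1 cluster, so the share of a locus itself is not known for them. With a gap of up to 50 kb the order was different: let-7c, miR-99a and miR-125b then formed the leading cluster with 16.7% ± 0.857, let-7a lay with miR-100 (7.53% ± 0.210), and let-7d with let-7f held 8.26% ± 0.182.

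Further clusters were those of miR-23b and miR-27b (5.22% ± 0.219), miR-15b and miR-16 (3.41% ± 0.153), and miR-199a and miR-214 (2.31% ± 0.199). Those of miR-143 and miR-145 (1.23% ± 0.00772), and of miR-195 and miR-497 (1.18% ± 0.00946), had the closest shares between arrays among the clusters above 1%. The cluster of let-7e, miR-99b and miR-125a held 1.18% ± 0.0391. The cluster of miR-1 and miR-133a had a mean of the same size, 1.18%, but stood at 3.22%, 0.120% and 0.193% on the 3 arrays, so that its mean describes none of them.

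The imprinted Dlk1-Dio3 region, whose miRNAs are read from the maternal chromosome in mammals, holds 49 of the array's miRNAs in 3 clusters. Of these, 32 were detected on all 3 arrays, 3 on 1 or 2, and 14 on none. Among all miRNAs the shares were 56.6%, 8.29% and 35.1%. Together the 49 held 1.57%, 1.696% and 1.57% of the signal. The brightest was miR-434, at 494, 536 and 474, and miR-127, which lies antisense to the imprinted gene Rtl1, was at 445, 532 and 478. The median SD of log2 signal of the members detected on all 3 arrays, 0.118, lay near that of all such miRNAs (0.131).

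Of the miRNAs that lie within Hox gene clusters, the 5 given here were detected on all 3 arrays, beside 56.6% of all miRNAs. The strands miR-10a-3p and miR-196a*, from the hairpins of miR-10a-5p and miR-196a, were detected on no array. miR-10b was at 1126, 1190 and 1152 and miR-10a-5p at 654, 687 and 701. miR-196a was at 341, 369 and 346, miR-196b at 264, 324 and 297, and miR-196c at 58.2, 66.7 and 61.5. Array 1 was the lowest in all 5, as it was in 151 of the 198 miRNAs detected on all 3 arrays.

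Lists of miRNAs known from given cell types, though not all restricted to them, were then read, each by its detections and its share. In a bulk sample such as this, fewer cells of a type and less RNA per cell cannot be told apart. The label of the tissue was first set against Schwann cell and myelinating glia miRNAs. Of the 8 on the array, 5 were detected on all 3 arrays, 1 on array 3 alone, and 2 on none. That is near the 56.6% detected on all 3 among all miRNAs. The list had a summed share of 10.4%, 11.1% and 12.6%. Array 3 was the highest and array 1 the lowest. Most of this sum came from miR-338 and from miR-23a, which is not restricted to glia.

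miR-204, which shares its seed with miR-211, was at 1633, 1912 and 2085. miR-138, which represses the immature Schwann cell factors Sox2 and Jun, was at 483, 589 and 639. Both were lowest on array 1 and highest on array 3, as miR-338 was, and so were 98 of the 198 miRNAs detected on all 3 arrays. miR-211 was dim, at 6.88, 9.97 and 7.57. The 3p strands of both miR-219 hairpins, known from oligodendrocytes, were detected on no array.

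Neuronal miRNAs were detected in part and held a small share of the signal. Of 16 on the list, 10 were detected on all 3 arrays and no array detected the other 6, near the 56.6% detected on all 3 among all miRNAs, with a summed share of 0.689%, 0.719% and 0.811%. The brightest was miR-218, known from motor neurons, at 660, 716 and 893. miR-9 was at 250, 324 and 350, its other strand miR-9* at 185, 214 and 237, and miR-128 at 156, 124 and 136. miR-124, abundant in neurons of the brain, was at 56.4, 66.6 and 79.3. The 6 not detected were miR-7b, miR-129, miR-132, miR-153, miR-383 and miR-344-3p.

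The cluster of miR-96, miR-182 and miR-183, known from sensory organs and sensory neurons, was detected as a whole and held 0.101% ± 0.0124. miR-96 was at 103, 117 and 152, miR-183 at 63.6, 71.3 and 82.0, and miR-182 at 32.3, 35.003 and 42.0. All 3 were lowest on array 1 and highest on array 3, the order found in 98 of the 198.

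Vessel and connective tissue miRNAs were detected in full. Among all miRNAs, 56.6% were detected on all 3 arrays, and the endothelial and smooth muscle lists hold only 2 members each. Endothelial miR-126, from an intron of Egfl7, was at 2308, 2391 and 2336, with the smallest SD of scaled log2 signal of any miRNA detected on all 3, although miR-532-3p had a smaller one with the background-subtracted spot signal and with the deposited table, and miR-194 with quantile normalisation. Its other strand miR-126* was at 182, 190 and 207. In smooth muscle, miR-143 and miR-145 drive the contractile state, and they were at 2595, 2729 and 2846 and at 105, 120 and 113. All 7 miRNAs of the mesenchyme and fibroblast list were detected on all 3 arrays, with a share of 4.53% ± 0.0855. Among them were miR-199a-3p at 3911, 4293 and 3808, miR-214 at 617, 680 and 599, and miR-29a at 2413, 2438 and 2756. The shares of these lists varied little between the arrays.

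White blood cell miRNAs were also detected, 6 of 6 on the array, beside 56.6% of all miRNAs. Their share of signal was 0.870% ± 0.0335. miR-146a, induced by the inflammatory factor NF-kappaB, was at 610, 647 and 677. Myeloid miR-223 was at 466, 537 and 501, miR-142-3p, common to blood cell lineages, at 316, 361 and 325, and lymphocyte miR-150 at 307, 343 and 326. The spread between arrays was small here (median SD of log2 signal 0.0926).

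The red blood cell miRNAs did vary. miR-451, which is processed without Dicer and abounds in erythrocytes, was at 3020, 2352 and 527, and miR-144 from the same transcript at 117, 87.8 and 22.8. In both, array 3 was far below the other arrays, 5.73-fold and 5.14-fold below array 1. Their summed share was 1.42%, 1.06% and 0.228%. The amount of blood in each nerve piece was not measured, and its part in these values was not tested. The white blood cell list was at 0.856%, 0.908% and 0.845% on the same arrays.

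Muscle miRNAs varied most. Of 6 on the array, 4 were detected on all 3 arrays, beside 56.6% of all miRNAs. The summed share of the list was 5.65%, 0.226% and 0.376%. miR-1, which drives muscle differentiation, was at 6874, 261 and 447, so array 1 was 26.4-fold above array 2. miR-133b was at 4782, 197 and 334 (24.3-fold), and miR-133a at 225, 14.6 and 17.0 (15.4-fold). miR-206, which is restricted to skeletal muscle, was at 507 on array 1 and 44.5 on array 3 and was not detected on array 2. Array 1 was highest in all 4, array 3 second and array 2 lowest or undetected.

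miR-499, encoded in a slow myosin gene, did not follow them, at 56.8, 48.3 and 63.6, and miR-208, of heart myosin, was detected on no array. With array 1 left out, the muscle list held 0.301% of the signal in place of 2.08%. The labels do not say whether muscle was taken with the nerve, and the part of muscle tissue in these values was not tested.

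**Figure D3:**
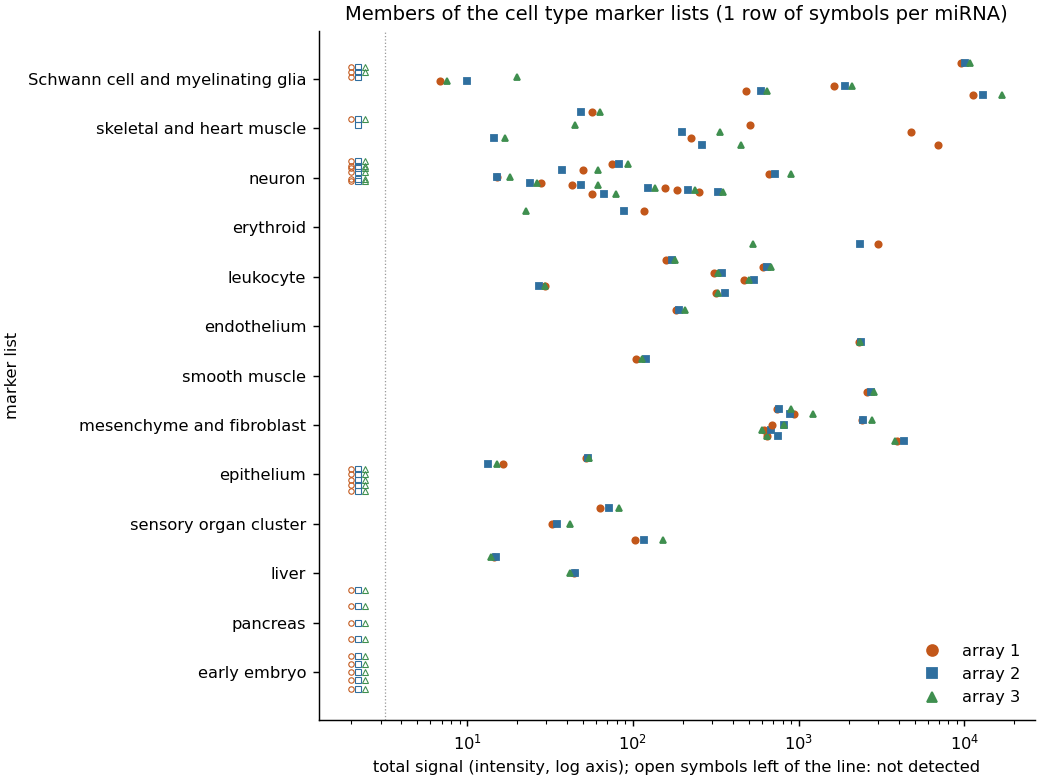
Total signal (intensity, log axis) of each member of the cell type lists on the 3 uninjured arrays, with 1 row of symbols per miRNA and open symbols where it was not detected. Array 1 lies far to the right in 4 muscle miRNAs, array 3 lies far to the left in both erythroid miRNAs, and the arrays lie close together in most other lists.

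The pancreas and early embryo lists were wholly undetected, and the epithelial and liver lists were detected in part. Among all miRNAs, 35.1% were detected on no array. Of 7 epithelial miRNAs, the 5 of the miR-200 family, which repress the Zeb factors, were detected on no array. miR-205 was at 52.2, 53.4 and 54.7 and miR-203, a skin miRNA, at 16.5, 13.3 and 15.2. Liver miR-122 was not detected, while miR-192 was at 44.1, 45.0 and 41.9 and miR-194 at 14.6, 14.9 and 14.0. None of 3 pancreas miRNAs (miR-375, miR-216a, miR-217) and none of 5 early embryo miRNAs of the miR-290 cluster was detected. The remaining clusters with no detected member were 2 groups known mainly from testis, miR-463 with 5 neighbours and miR-742 with 3, and miR-130b with miR-301b. A miRNA that was not detected has no level here.

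miRNAs that many tissues induce under stress or growth were read at baseline. Of 12 on the array, 7 were detected on all 3 arrays, a share near the 56.6% of all miRNAs, and the list held 2.44% ± 0.0690. miR-21, which injury and inflammation raise in many tissues, made up most of it, at 2788, 3089 and 3176. miR-146b was at 512, 647 and 609, miR-221 at 152, 166 and 166, and miR-210, which low oxygen induces, at 69.8, 83.8 and 90.5. miR-222, from the transcript of miR-221, was dim and spread widely, at 11.9, 17.3 and 28.5. miR-21*, miR-31, miR-132 and miR-34c were detected on no array.

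The miR-17 group, which Myc and E2F factors raise in dividing cells, had 10 of 12 members detected on all 3 arrays, beside 56.6% of all miRNAs. The group's share of signal was 1.195% ± 0.0511. miR-19b was at 374, 401 and 412, miR-20a at 373, 431 and 398, and miR-17-5p at 179, 209 and 209. miR-18a was called on array 1 alone, at 10.6.

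The arms of the hairpins were compared next. In the older naming used on the array, an asterisk marks the strand that was held to be the less abundant. Of 58 names with an asterisk, 22 (37.9%) were detected on all 3 arrays, 9 on some and 27 on none. Of the 292 names without one, 176 (60.3%) were detected on all 3, 20 on some and 96 on none. All asterisk names together held 0.750% ± 0.0128 of the signal.

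Among 51 hairpins with an asterisk strand and its partner both on the array, 15 had both on all 3 arrays, and the asterisk strand was the brighter in none of these 15. Its signal had a median of 11.4% of the partner's, a ratio of probe signals rather than of molecules. The lowest ratio was that of let-7d*, at 13.4, 15.1 and 13.3, or 0.292% ± 0.0258 of let-7d. Next, miR-338* was at 45.5, 55.4 and 64.8, or 0.406% ± 0.0209 of miR-338. miR-99a* was at 34.6, 40.0 and 43.4, or 0.591% ± 0.0232 of miR-99a. At the high end, miR-140* was at 202, 232 and 230, or 71.6% ± 2.23 of miR-140, and miR-9* was at 69.3% ± 4.38 of miR-9. In each of these pairs the ratio varied little between arrays.

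In 22 hairpins the partner was detected on all 3 arrays and the asterisk strand on none, miR-23a* among them. In 4 hairpins the asterisk strand was detected and its partner on no array. miR-296* was at 30.5, 17.2 and 16.5, miR-129* at 15.2, 15.2 and 18.2, miR-543* at 13.0, 14.0 and 13.6, and miR-330* at 4.91 on array 3 alone. All 4 were dim.

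**Figure D4:**
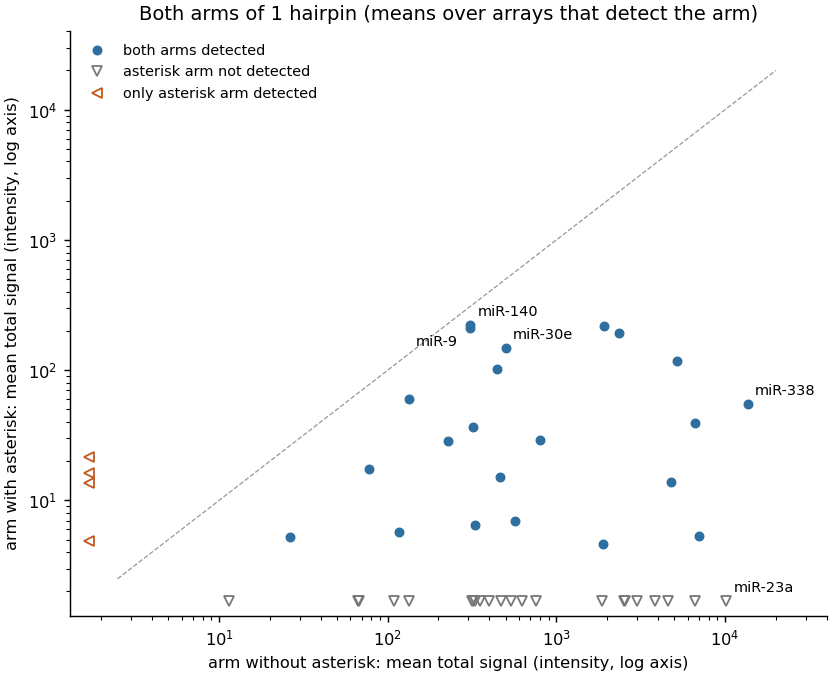
Mean total signal (intensity, log axes) of the asterisk strand against that of its partner, each over the uninjured arrays that detect it, for the hairpins with both on the array. Triangles at the edges mark hairpins with 1 strand not detected, the dashed line marks equal signal, and no point with both strands detected lies above it.

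Close relatives were read by separate probes, so it was asked how far their values part. In 19 pairs of mature strands a single base differs at equal length. Both members were detected on all 3 arrays in 17 pairs, 1 member in 1 pair and neither in 1 pair. In what follows the position is counted from the 5′ end, with the base of the first miRNA before it and that of the second after it. The signal of let-7a was 1.121 ± 0.0106 times that of let-7f (G12A), 1.19 ± 0.00919 times that of let-7c (A19G) and 8.50 ± 0.0528 times that of let-7e (U9G). These ratios were nearly the same on the 3 arrays.

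The pair miR-204 and miR-211 (A17U) lay far apart, at a ratio of 235 ± 41.9. miR-7a was at 27.9, 24.0 and 26.6, and miR-7b, which differs from it by A10U, was detected on no array:
miR-204: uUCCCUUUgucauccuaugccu
miR-211: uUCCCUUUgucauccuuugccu
miR-7a: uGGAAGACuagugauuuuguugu
miR-7b: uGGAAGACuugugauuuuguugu

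miR-133b and miR-133a, whose last bases differ (A22G), had a ratio of 18.1 ± 4.11 and were both highest on array 1, as given above. miR-23a and miR-23b (U19A) were at a ratio of 1.29 ± 0.0177, miR-103 and miR-107 (G22C) at 1.06 ± 0.0419, and miR-19b and miR-19a (C11U) at 10.2 ± 0.0714. How much of a relative's signal each probe takes up was not tested.

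The spread between the 3 arrays was taken over the 198 miRNAs detected on all of them, as the SD of log2 signal once the 75th percentile of these miRNAs had been set equal on all arrays. The median SD was 0.131, with quartiles of 0.0971 and 0.195. For 167 miRNAs (84.3%) it was at most 0.25, and for 12 it was above 0.5. With array 3 left out that count was 6. The coefficient of variation of the same scaled signals, taken off the log scale, had a median of 9.11%. The error that the scanner software gives each miRNA had a median of 8.15%. The coefficient of variation was above the software's error in 103 of the 198 and more than 2 times it in 25. The median SD was 0.164, 0.126 and 0.117 when the miRNAs were split by signal into 3 equal groups, from the dimmest to the brightest.

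The 12 with an SD above 0.5 were led by miR-1 (2.53), miR-133b (2.46), miR-133a (2.21), miR-451 (1.35) and miR-144 (1.25), whose values are given above. The other 7 had an SD of 0.79 or less, and 5 of them were under 0.5 when the background-subtracted spot signal was used: miR-409-3p (0.16), miR-382* (0.18), miR-222 (0.26), miR-466b (0.45) and miR-32 (0.39). miR-409-3p, of the Dlk1-Dio3 region, was at 23.3, 9.998 and 8.18 (0.79), and miR-382*, of the same region, at 19.2, 23.1 and 9.63 (0.65). miR-222 had an SD of 0.65, and miR-466b was at 23.5, 32.2 and 52.3 (0.60). The brightest of the 7 was miR-378, from an intron of the metabolic regulator gene Ppargc1b, at 333, 183 and 168 (0.53). Array 1 was the highest in miR-378, as it was in miR-378* from the same hairpin.

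The last of the 12 were miR-30c-1*, at 4.39, 5.95 and 8.69 (0.51), and miR-32, at 21.7, 29.7 and 42.8 (0.50). Array 1 lay farthest from the other arrays in 5 of the 12, array 3 in 7 and array 2 in none. At the other end, the smallest SDs were those of miR-126 (0.027), miR-532-3p (0.032), miR-194 (0.032), miR-192 (0.039) and miR-10b (0.041). In each of these the coefficient of variation was below the software's own error.

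**Figure D5:**
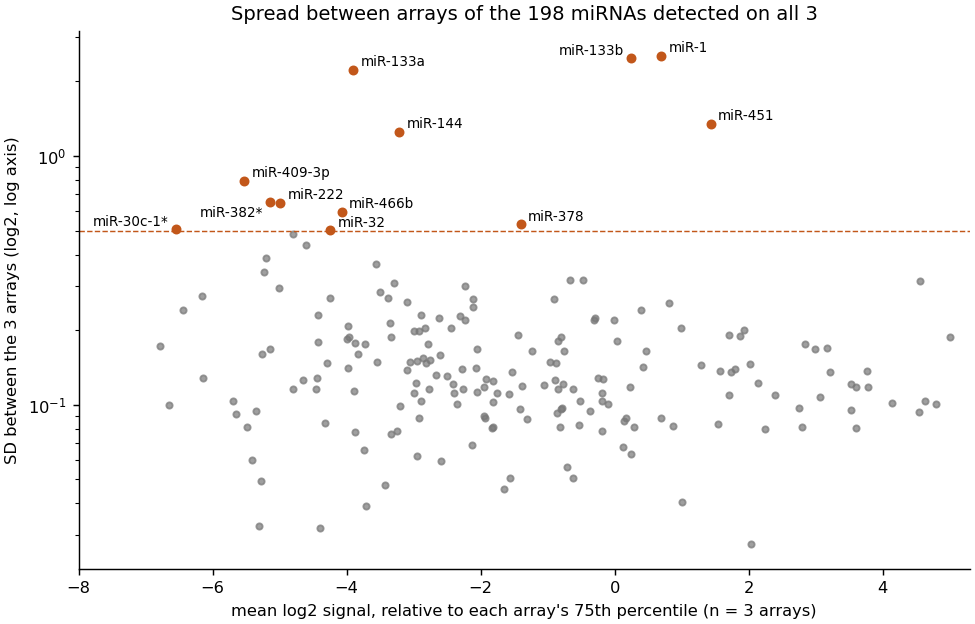
SD of log2 signal between the 3 uninjured arrays (log axis) against the mean log2 signal relative to each array's 75th percentile, for the 198 miRNAs detected on all 3. The dashed line is at 0.5, and the 12 named miRNAs above it include 3 of muscle and both of the erythroid list.

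Across the 198 miRNAs, log2 signals of arrays 2 and 3 had a Pearson correlation of 0.993, against 0.976 for arrays 1 and 2 and 0.974 for arrays 1 and 3. The points share their arrays and probes and are not independent, so these values describe the arrays only. Over the 192 that remain without the muscle and erythroid lists, the 3 correlations were 0.996, 0.997 and 0.994. After scaling, array 1 was lower than array 2 in 171 of the 198 miRNAs, by a median of 0.147 on the log2 scale. It was lower than array 3 in 170, by a median of 0.196. Without scaling the counts were 171 and 165 and the medians 0.148 and 0.170, so the scaling did not remove this offset. The median SD of 0.131 was 0.124 without scaling. It was 0.109 when the median of the same miRNAs was set equal, a scaling chosen after seeing the data. The median SD without the muscle and erythroid lists was 0.0932 once the 75th percentile was taken over the remaining miRNAs, and the count above 0.5 was then 5.

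The 172 miRNAs with a sequence that were detected on all 3 arrays had a median GC content of 45.5%, against 52.2% for the 25 detected on some and 50% for the 86 detected on none. Within the 172, GC content and mean log2 signal had a Pearson correlation of -0.15 and a Spearman correlation of -0.13. Whether base composition alters the signal of a probe was not tested.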

How the data were processed

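Intensity values in the deposited array files were made with Agilent Feature Extraction 10.7.3.1 with the genomic build rn4, per the file headers, and carry no scaling between arrays. The software gives 0.1 in place of the total signal where a miRNA is not detected, and such values were treated as not detected. The value table that was deposited beside them holds log2 values, as its numbers show. Its normalisation is not given in the sources used here, it lacks miR-17-5p, and it served only as an alternative. Control spots were left out. Array names were matched to RefSeq mature sequences (GRCr8) by the same name for 68 miRNAs and through a hand-made table of older and current names for 215. The annotation served only for names and neighbours, because its build differs from that of the files. Python 3.11.15, pandas 2.3.3 and numpy 2.4.6 were used, and the spread and cluster steps were tested on simulated data. With 1 group there is no contrast and no test.

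The miRNAs and lists were chosen with earlier results of these data known. A rule set which miRNAs are named: the 20 with the largest mean share, the 10 with the largest and the 5 with the smallest SD, the 5 brightest of those detected on 1 or 2 arrays, undetected members of the lists, and members of the leading families, clusters and lists. A few further miRNAs (the Hox group, miR-127, strand pairs, close relatives and the members of mixed families) were named after their values were seen. Alternatives covered the detection call, the source of the signal, the scaling, the cluster gap and each array left out.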

Additional observations from a re-analysis of the deposited data

Results flagged for a closer look

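Several control features of the array, which none of the results above use, gave signal on all 3 uninjured arrays. Their identity is not given in the sources used here, and they were singled out because they lie in data outside the miRNA measurement and above the negative controls. The mean total signal over the 3 arrays was 86751 for hur_2, 24329 for hur_6, 21314 for hur_1, 5945 for hur_4 and 1069 for mr_1. hur_2 was at 79971, 91609 and 88673, above the brightest miRNA on each array, and the feature hur_5 was detected on none. The negative controls averaged -0.60, -0.91 and -0.14.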

How the results depend on the processing

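From the deposited value table the 10 brightest miRNAs held 46.8%, the 5 leading families 51.6% and the 3 leading clusters 29.8%, while the background-subtracted spot signal and a total over detected miRNAs kept all 3 shares within 1 SD. Clusters within 50 kb gave 33.7%. A call from most spots being well above background gave 150 miRNAs on all 3 arrays, 24 on some and 176 on none, and signal above 3 times its error gave the same calls by construction. The count of SDs above 0.5 was 28 where the 227 miRNAs on at least 1 array were taken with a floor, and 8 to 16 with other scalings and sources. The following was chosen after seeing the data: without the muscle and erythroid lists the count was 5, the median SD 0.0932 and the lowest correlation 0.994. Leaving out 1 array gave 17 to 24 miRNAs with a mixed call, 199 to 210 on every array left, a correlation of 0.974 to 0.993, a median SD of 0.0931 to 0.1499 and 6 to 15 SDs above 0.5, the lower values being those without array 1 for the median and without array 3 for the count. The cause of these shifts was not tested. Depth here is signal over background: calls near the lowest detected signals of 4.39 to 5.64 are the least firm. No paired analysis was possible because only 1 group is described.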
